A study of Mus musculus with 61 samples.

Results

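The genes of CTCF and of the cohesin machinery were followed through the formation of mouse stembryos, aggregates of embryonic stem (ES) cells that form a body axis in culture. The members were the rows of the expression table whose gene symbol was Ctcf, Rad21, Smc1a, Smc3, Stag1, Stag2, Nipbl, Wapl, Pds5a or Pds5b. All 10 symbols matched once, out of 55052 genes in the table, and all 10 were above the filter on low values in every library. Messenger RNA was sequenced in 61 libraries, each made from a pool of stembryos. The study asked how CTCF sites of the HoxD gene cluster set the timing of Hox gene activation. Wild-type (wt) stembryos were collected as a time course of 8 stages, at 72, 84, 96, 108, 120, 132, 144 and 168 h after the cells were aggregated, with 2 libraries per stage. Further wt libraries were made at 96 h (4), 120 h (4) and 144 h (2), beside 17 mutant conditions. Each of these had 2 libraries, except that Del(sub-TAD1) had 3 at 96 h.

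All stembryos were given a pulse of Chiron, an inhibitor of the kinase GSK-3 that activates Wnt signalling, from 48 h to 72 h. Del(CBS1), Del(CBS2) and Del(CBS4) each lacked 1 CTCF binding site of HoxD, Del(CBS1-2) lacked CBS1 and CBS2 and was made on the Del(CBS1) line, and Del(CBS1-5) lacked all sites from CBS1 to CBS5. Del(d1-d4) lacked the segment from Hoxd1 to Hoxd4, Del(sub-TAD1) lacked the near sub-domain of the telomeric regulatory domain, and Ins(2xCBS-d4d8) carried a cassette with a pair of extra CTCF sites. The lines were homozygous, and most were clones of the same 129/SVEV ES cells as wt. Del(CBS1-5) and Del(sub-TAD1) were instead derived from blastocysts of mutant mice, the second with a transgene that supplied Mtx2. The study kept its mice back crossed to BL6 × CBA F1 hybrids, so strain and derivation differed from wt together with these alleles. From 108 h only elongating stembryos were collected. None of these alleles altered a CTCF or cohesin gene. The study's methods call replicates biological, but the labels do not say which libraries came from separate cultures, so p-values measure the spread between libraries.

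CTCF is a zinc finger protein that binds DNA at an oriented motif. Cohesin is a ring built from SMC1A, SMC3, the kleisin RAD21 and either STAG1 or STAG2. NIPBL drives loading and the extrusion of DNA loops, WAPL opens the ring and releases it from chromatin, and PDS5A and PDS5B bind RAD21 and act with WAPL or with the acetylation that protects the ring. Loops grow until cohesin meets CTCF, and in dividing cells the same rings hold sister chromatids together.

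The genes lay on 7 chromosomes of mm10, and the locus of each row spanned the whole gene, exons, introns and UTRs together. Ctcf was at chr8:105636579-105682922 (plus strand), Rad21 at chr15:51962240-51991747 (minus) and Nipbl at chr15:8290617-8444463 (minus). Smc1a at chrX:152016428-152062694 (plus) and Stag2 at chrX:42149317-42277185 (plus) were X-linked, and Smc3 was at chr19:53600398-53645833 (plus). Stag1 lay at chr9:100597798-100958545 (plus), Wapl at chr14:34673928-34747983 (plus), Pds5a at chr5:65605721-65698168 (minus) and Pds5b at chr5:150673739-150810690 (plus). Annotated genes overlapped Ctcf (3), Stag1 (5), Pds5a (5), Pds5b (3), Smc1a (1) and Stag2 (1), so reads there may be shared: the authors ran Cufflinks with its default parameters, under which the library is taken as unstranded.

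Promoter sequences of 7 members were matched in RefSeq (GRCm38.p6), and Rad21, Stag2 and Nipbl had none. The 250 bases before the RefSeq start are shown for Wapl, which fell most over the time course, for Pds5a, which fell with it, and for Stag1, which did not pass the test across stages. Capitals mark GGGCGG, the letters that SP factors bind, and CCAAT, the letters that NFY binds, on either strand. The windows are chr14:34673678-34673927 (plus) for Wapl, chr5:65698237-65698486 (minus) for Pds5a and chr9:100643198-100643447 (plus) for Stag1, given 5′ to 3′ on the strand of the gene. The RefSeq start of Stag1 lies downstream of the first base of its locus in the table, so that this window is inside the locus given above.
Wapl: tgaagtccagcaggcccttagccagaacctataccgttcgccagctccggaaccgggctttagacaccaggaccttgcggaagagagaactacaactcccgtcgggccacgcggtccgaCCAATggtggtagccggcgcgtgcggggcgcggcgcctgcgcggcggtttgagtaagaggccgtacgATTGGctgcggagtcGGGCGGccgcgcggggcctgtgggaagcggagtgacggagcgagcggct
Pds5a: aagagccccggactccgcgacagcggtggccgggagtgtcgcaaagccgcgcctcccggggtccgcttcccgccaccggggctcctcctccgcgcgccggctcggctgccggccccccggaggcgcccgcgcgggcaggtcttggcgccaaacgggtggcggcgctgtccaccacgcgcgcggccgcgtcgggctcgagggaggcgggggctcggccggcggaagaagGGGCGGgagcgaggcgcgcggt
Stag1: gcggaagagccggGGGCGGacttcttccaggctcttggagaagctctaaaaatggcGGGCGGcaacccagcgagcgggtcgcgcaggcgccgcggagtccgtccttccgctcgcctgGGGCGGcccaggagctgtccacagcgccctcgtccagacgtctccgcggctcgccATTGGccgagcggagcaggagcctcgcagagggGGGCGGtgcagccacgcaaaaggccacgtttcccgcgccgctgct
GGGCGG was found in 7 of 7 member windows and in 32.7% of 32851 RefSeq windows of the same length, and CCAAT in 4 of 7 and 33.8%. The letters TTTGGCGC or TTTCCCGC, which E2F factors bind, were in 2 of 7 (Pds5a and Stag1) and in 1.3% of all windows. GC content ran from 56.8% in Smc1a to 80.4% in Pds5a, with 52.4% the median of all windows, and the motifs did not overlap one another in the sequences shown. All 7 member windows were thus richer in GC than that median. The shares of all windows were not matched for GC content, so the motif counts do not show enrichment.

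The libraries fell into 2 sets by the level of the mitochondrial transcripts mt-Co2 and mt-Co3, which was at least 576 FPKM (fragments per kilobase of transcript and per M, 10 to the sixth, mapped fragments) in 28 libraries, called set 1, and at most 3.85 FPKM in 33 libraries, called set 2. Set 2 held the time course, wt replicate 4 at 96 h and 120 h, both other wt libraries at 144 h, Ins(2xCBS-d4d8) and Del(CBS4). It also held the 96 h libraries of Del(sub-TAD1) and the 144 h libraries of Del(CBS1-5). What made the sets is not in the labels. Depth, recovered from the confidence intervals of the table, was 15.1 to 39.0 M fragments, with 738 to 10380 fragments behind a member's value and an interval of ± 1.96% to 7.36% for counting error alone. Xist was at most 0.294 FPKM and Ddx3y at least 4.38 FPKM in all 61 libraries. In wt replicates 3 and 4 the Y-linked Eif2s3y was at 6.89 to 12.4 FPKM, below the 18.4 to 23.0 FPKM of replicates 1 and 2. Kdm5d was at 0.1 to 0.802 FPKM in the former and 0.01 to 0.037 in the latter. In Del(CBS1-5) and Del(sub-TAD1) Kdm5d was at 0.134 to 0.933 FPKM and Eif2s3y at 14.4 to 29.7. The labels do not say whether all wt libraries came from the same cell line. Replicates 1, 2 and 3 served together as controls of set 1. Replicate 1 of Del(sub-TAD1) at 96 h stood apart from replicates 2 and 3, with Pds5a at 51.9 against 67.2 and 65.8 FPKM. Hoxd1, Hoxd3 and Hoxd4 were listed at 0 in the 4 Del(d1-d4) libraries.

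Rad21 was the most abundant member and Nipbl the least abundant in all 61 libraries. In the 16 time-course libraries Rad21 averaged 112 ± 10.7 FPKM (SD, n = 16), and its lowest value there, 96.5 FPKM, was above the highest of any other member, 79.8 FPKM for Pds5a. Next in order came Smc1a (61.1 ± 8.95 FPKM), Ctcf (56.1 ± 3.60), Pds5a (55.8 ± 9.64) and Smc3 (48.9 ± 7.39), whose ranges overlapped. Wapl (35.3 ± 10.7 FPKM), Stag1 (32.7 ± 2.64) and Stag2 (32.3 ± 4.62) overlapped too, and Pds5b (25.0 ± 4.32) and Nipbl (16.5 ± 2.75) closed the order. FPKM is per length, so levels of different genes can be set side by side. Small differences do not rank genes where reads may be shared. Differences below are on the log2(FPKM + 0.1) scale.

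**Figure D1:**
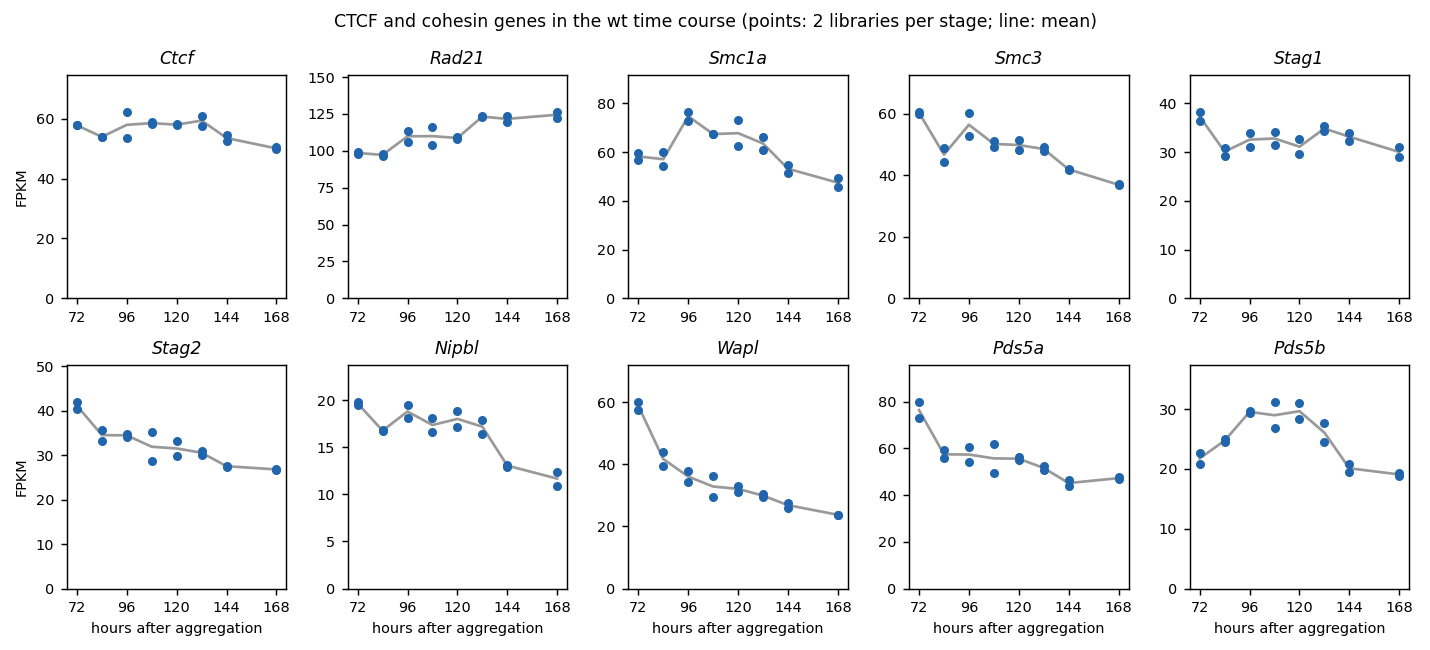
Levels of the 10 genes in the wt time course, in FPKM (vertical axes from 0) against hours after aggregation. Points are the 2 libraries of each stage and the line joins their means. Wapl fell from 58.8 to 23.7 FPKM on average, Rad21 had its lowest mean at 84 h (97.3 FPKM) and its highest at 168 h (125 FPKM), and Smc1a peaked at 96 h.

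The first comparison asked whether the genes changed as stembryos developed. The cohesin release factor gene Wapl fell by more than any other member, the kleisin gene Rad21 rose, and the ring genes Smc1a and Smc3, the STAG2 gene, the loader gene Nipbl and the regulator Pds5a ended lower at 168 h than at 72 h. Across the 8 stages 9 of 10 members passed limma's F-test with Benjamini-Hochberg adjustment over 17098 genes, as did 61.8% of all genes tested. At 168 h against 72 h, 7 members were lower and 1 was higher, with 22.9% and 25.3% of all genes called lower and higher (48.2% in all). The median difference was -0.46 over the 10 members and 0 over all genes.

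Wapl, whose product releases cohesin from chromatin, was at 60.1 and 57.5 FPKM at 72 h, 43.8 and 39.6 at 84 h, 37.8 and 34.4 at 96 h, 36.1 and 29.6 at 108 h and 33.2 and 31.0 at 120 h. It then stood at 29.4 and 30.5 FPKM at 132 h, 26.0 and 27.7 at 144 h and 23.7 and 23.8 at 168 h. Both libraries of 72 h were the highest and both of 168 h the lowest of the 16, and the drop was steepest at the start. Wapl fell by 1.30 from 72 h to 168 h (SE 0.13, limma adjusted p = 1.33e-10), and by 0.50 already from 72 h to 84 h (SE 0.13, adjusted p = 6.01e-03). Between neighbouring stages 3 members were called from 72 h to 84 h (16.3% of all genes), 1 from 84 h to 96 h (20.7%) and 1 from 132 h to 144 h (5.42%). None was called from 96 h to 108 h (9.45%), 108 h to 120 h (7.06%), 120 h to 132 h (2.46%) or 144 h to 168 h (9.87%). The call for this first step was lost without replicate 1 or replicate 2 of the time course, with adjusted p = 0.0952 and 0.17.

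Rad21, the kleisin that closes the ring, went the other way. It was at 99.6 and 97.6 FPKM at 72 h, 98.0 and 96.5 at 84 h and 106 and 114 at 96 h. Values then ran from 104 to 116 FPKM at 108 h and 120 h and from 120 to 126 FPKM from 132 h to 168 h, so that no library before 132 h reached the lowest of the later ones. The rise from 72 h to 168 h was 0.34 (SE 0.085, adjusted p = 1.03e-03). Without time-course replicate 2 it was 0.30, with adjusted p = 0.0696.

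The SMC subunits, the coiled-coil arms of the ring, followed different courses. Smc1a was at 56.8 and 59.6 FPKM at 72 h, 54.2 and 59.9 at 84 h and 72.8 and 76.5 at 96 h, and then declined to 49.4 and 45.5 at 168 h. It rose by 0.39 between 84 h and 96 h (SE 0.095, adjusted p = 2.58e-03), a call lost without time-course replicate 1 (0.35, adjusted p = 0.0893). The 168 h value was 0.30 lower than that of 72 h (SE 0.095, adjusted p = 9.51e-03), a call lost without replicate 2 (adjusted p = 0.286). Smc3, its partner, started at 60.0 and 60.7 FPKM, was at 44.5 and 49.0 at 84 h, at 52.7 and 60.2 at 96 h and at 37.2 and 36.7 at 168 h. Smc3 fell by 0.71 in all (SE 0.11, adjusted p = 2.05e-06) and by 0.37 from 72 h to 84 h (SE 0.11, adjusted p = 0.02), the latter call being lost without either replicate. At 168 h Smc1a and Smc3 were both at their lowest.

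Stag2 and Stag1 encode alternative subunits that differ in the partners and sites they favour. Stag2 was at 41.9 and 40.3 FPKM at 72 h and at 26.9 and 26.6 at 168 h, with no overlap, and fell by 0.62 (SE 0.12, adjusted p = 2.80e-05). Stag1 was at 38.3 and 36.3 FPKM at 72 h, at 29.2 and 30.9 at 84 h and at 31.0 and 29.1 at 168 h. Stag1 did not pass the F-test (adjusted p = 0.388), and its difference of -0.31 between 168 h and 72 h (SE 0.13) missed the threshold at adjusted p = 0.0514. Under 5 alternatives that difference passed, among them the fit of the 16 time-course libraries alone, with adjusted p = 5.49e-03.

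Nipbl, the loader, was at 19.5 and 19.8 FPKM at 72 h and stayed between 16.4 and 19.4 until 132 h. It dropped to 13.1 and 12.9 FPKM at 144 h and 12.4 and 10.9 at 168 h, below every earlier library of the time course. The wt libraries of 144 h outside the time course did not show this drop, with Nipbl at 19.5 and 22.8 FPKM. Nipbl fell by 0.75 between the ends (SE 0.12, adjusted p = 3.83e-06), although the step from 132 h to 144 h did not itself pass.

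The PDS5 paralogues, which bind the ring together with WAPL, diverged early. Pds5a went from 79.8 and 73.0 FPKM at 72 h to 59.2 and 55.7 at 84 h and to 47.0 and 47.6 at 168 h. It fell by 0.69 in all (SE 0.092, adjusted p = 7.57e-08) and by 0.41 from 72 h to 84 h (SE 0.092, adjusted p = 1.44e-03), the latter with adjusted p = 0.0514 without replicate 1. Pds5b was at 22.7 and 20.9 FPKM at 72 h, at 29.4 and 29.7 at 96 h, at 31.0 and 28.3 at 120 h and at 18.9 and 19.3 at 168 h. Its F-test passed (adjusted p = 1.46e-07), since it was highest in the middle stages. Its ends differed by -0.19 (SE 0.097, adjusted p = 0.118). The largest single step of Pds5b was a fall of 0.37 from 132 h to 144 h (SE 0.097, adjusted p = 0.0182), from 24.4 and 27.7 to 19.4 and 20.8 FPKM. That call was lost without either time-course replicate. In the wt libraries of 144 h outside the time course Pds5b was at 23.6 and 26.1 FPKM.

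Ctcf, the boundary factor, stayed in a narrow range. Its 16 values ran from 49.7 to 62.3 FPKM, with 57.7 and 57.8 at 72 h and 49.7 and 50.4 at 168 h. The F-test gave adjusted p = 0.0499, just under the threshold, and the fall of 0.21 between the ends (SE 0.075) gave adjusted p = 0.0217. That fall was not called without replicate 1 (adjusted p = 0.167) or replicate 2 (0.133).

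The stage means of some members ran in parallel over the 8 stages. Those of Stag2 and Wapl correlated at Pearson r = 0.982, Stag2 and Pds5a at 0.972, Wapl and Pds5a at 0.958, Smc3 and Nipbl at 0.954 and Smc1a and Pds5b at 0.945, while Rad21 and Wapl were at -0.886. These describe 8 points from the same 16 libraries. Among all tested genes, the stage means most like those of Wapl were those of Utp14a (r = 0.997), Nufip2 and Ascc3, and 5.3% of genes exceeded r = 0.9 with Wapl. For Smc3 they were Riok1, Iws1 and Leo1, for Smc1a Top3a, Afdn and Ninl, for Pds5a they included Chfr and Dmxl1, and for Stag2 Rab3gap1, Ttc37 and Washc4. For Rad21 they were Msx2, Ddah1 and Prdm16, for Nipbl Gm11847, Spen and Zfp638, for Pds5b Zfp407, Mphosph9 and Ninl, and for Ctcf Gm20760 (r = 0.991), Tiam1 and Resf1.

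The balance between paralogues was followed as a log2 ratio in each library. Stag2 to Stag1 was at 0.13 and 0.15 at 72 h and at -0.20 and -0.13 at 168 h. Values this near 0 do not rank the messages of the 2 genes, at both of which reads may be shared, so only the change is read. The ratio declined with stage over the 16 libraries (Pearson r = -0.82, permutation p = 1.7e-04, adjusted p = 5.1e-04; Spearman rho = -0.82, permutation p = 1.5e-04, adjusted p = 4.5e-04). Without both libraries of 168 h r was -0.87. At 144 h Stag2 to Stag1 was at -0.31 and -0.23 in the time course. The wt libraries of 144 h outside it were at -0.068 and -0.0098, above both. The single set 2 libraries outside the time course were at -0.025 at 96 h and -0.20 at 120 h. The values of 144 h lay on both sides of the former and above the latter, so a decline to 144 h did not recur there. In the wt libraries outside the time course the ratio was 0.012 ± 0.087 (SD, n = 4) at 96 h and -0.12 ± 0.092 (n = 4) at 120 h, a difference of -0.13 (exact permutation p = 0.114, adjusted p = 0.229 over 3 ratios). Of these 4 libraries per stage 3 were of set 1 and 1 of set 2. Stag2 to Stag1 was lower at 120 h in 4 of 4 same-numbered pairs, by 0.13 ± 0.033 (SD, n = 4), with an exact sign-flip permutation p = 0.125, the smallest that 4 pairs allow.

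Pds5b to Pds5a was lowest at 72 h, at -1.81 and -1.80, reached -0.86 and -0.96 at 120 h and returned to -1.31 and -1.30 at 168 h. A straight relation with stage was not found (r = 0.30, permutation p = 0.262, adjusted p = 0.262; rho = 0.12, permutation p = 0.65, adjusted p = 0.65), although r was 0.58 without both libraries of 168 h. Nipbl to Wapl, the loader over the releaser, rose from -1.62 and -1.53 at 72 h to -0.95 and -0.92 at 96 h. It was at -0.83 and -0.76 at 132 h and at -0.93 and -1.12 at 168 h. The ratio thus rose early and did not keep rising to the end. Its r was 0.56 (permutation p = 0.0227, adjusted p = 0.034), its rho 0.46 (permutation p = 0.0749, adjusted p = 0.112), and r was 0.72 without both libraries of 168 h. With replicate 2 alone r was 0.39 (permutation p = 0.337, n = 8). At 144 h Nipbl to Wapl was at -0.98 and -1.09 in the time course and at -0.66 and -0.60 in the wt libraries outside it. Between 96 h and 120 h outside the time course neither ratio passed (exact permutation adjusted p = 0.229 for both, n = 4 per stage, both sets together). Within set 1 Pds5b to Pds5a lay between -1.36 and -1.25 at 96 h, below all 120 h libraries (-1.16 to -1.13), with no overlap, and the exact permutation p = 0.1 is the smallest that 3 libraries against 3 allow. It was higher at 120 h in 4 of 4 same-numbered pairs (exact permutation p = 0.125). Nipbl to Wapl was higher in 3 of 4 pairs. Tests were two-sided.

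**Figure D2:**
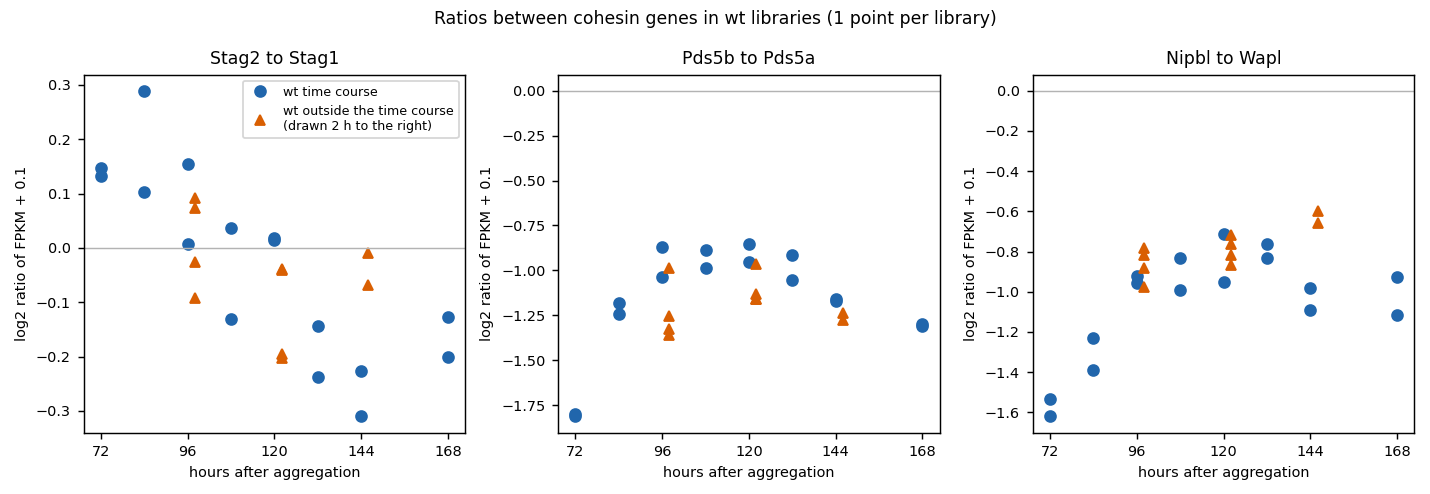
Log2 ratios of FPKM + 0.1 in single wt libraries against hours after aggregation, for Stag2 to Stag1, Pds5b to Pds5a and Nipbl to Wapl. Circles are the 16 time-course libraries and triangles the wt libraries outside it, and the grey line marks equal FPKM. The first ratio crosses 0 during the time course, and the other ratios stay below it in every library.

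Of 10 genes that act with cohesin, 7 fell and 1 rose from 72 h to 168 h (48.2% of all genes called), with a median of -0.41, and their summed level was 224 to 228 FPKM at 72 h and 220 to 222 FPKM at 168 h. The acetyltransferase genes Esco1 and Esco2, which lock rings closed, fell by 1.31 and 0.96, Mau2, the partner of the loader, fell by 0.23, and Pttg1, the securin that restrains separase, rose by 0.90. Of 3 tested members of the germline cohesin list of 5, Rec8 fell by 2.89, from 4.57 and 9.45 FPKM at 72 h to 0.673 and 0.95 at 168 h, and Stag3 fell by 1.45. Of 14 condensin and SMC5/6 genes, 6 fell and 3 rose, among them Smc6 and Ncapd3, which fell by 1.15 and 1.01, and Nsmce1, which rose by 1.02. Of 10 genes of proteins that act with CTCF, 5 rose and 1 fell, among them Vezf1 and Ldb1, which rose by 1.64 and 0.83. Of 14 cell cycle genes, 3 rose and 2 fell, with a median of 0.13.

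The tissue markers of the stembryo moved over the same stages. All 5 somite and all 5 spinal cord markers rose (25.3% of all genes called higher), and 5 of 6 markers of neuro-mesodermal progenitors fell (22.9% called lower). The summed level of 6 pluripotency markers went from 1202 and 1227 FPKM at 72 h to 137 and 140 at 168 h. In whole stembryos a change in the mix of cells and a change of RNA within cells cannot be told apart.

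The second comparison set the mutants against wt of the same stage and the same set, the wt of the time course included, for 10 members in 17 conditions. Most members did not pass in most lines, and the exceptions were Del(CBS1-5), Del(CBS4) at 144 h and Ins(2xCBS-d4d8) at 96 h. Of 170 tests 11 passed, 6 higher and 5 lower, and the share of all genes called ran from 0.199% to 30.7% over the 17 conditions. The calls were 5 of 10 in Ins(2xCBS-d4d8) at 96 h (9.91% of all genes) and 2 in Del(CBS4) at 144 h (3.42%). In Del(CBS1-5) they were 3 at 144 h (30.7%) and 1 at 96 h (11.9%), where the share of members called was near that of all genes. None was called by limma, with adjustment over all genes, in Del(CBS1) (0.216% of all genes called at 96 h and 1.2% at 120 h), Del(CBS1-2) (1% and 0.608%), Del(CBS2) (0.228% and 0.199%), Del(d1-d4) (0.626% and 0.76%) or Del(sub-TAD1) (14.1% and 6.65%). With the first or the second mutant library left out throughout, 0 and 1 of the 170 passed. In the 10 conditions of these lines the member differences ran from -0.22 to 0.15 with 2 unadjusted p-values under 0.05. Ctcf and Nipbl were called in no line. Ctcf differences ran from -0.16 to 0.10 and those of Nipbl from -0.26 to 0.30.

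**Figure D3:**
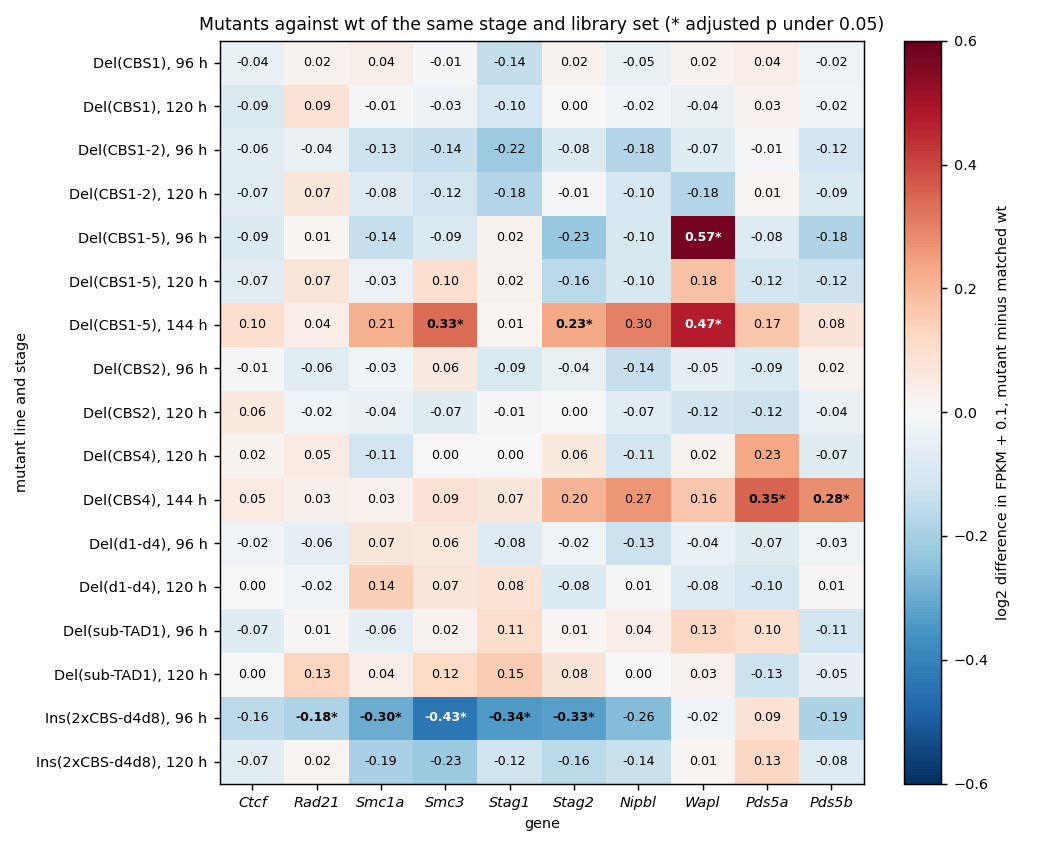
Log2 difference in FPKM + 0.1 between each mutant condition (rows) and wt of the same stage and set, for the 10 genes (columns). Red is higher and blue lower in the mutant, and an asterisk marks an adjusted p under 0.05. The 11 marked cells lie in 4 of 17 rows.

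Wapl was higher in Del(CBS1-5), the line without the CTCF sites from CBS1 to CBS5. This line also differed from wt in strain and derivation, so the allele and the origin of the line cannot be told apart. At 96 h Wapl was at 44.1 and 42.6 FPKM, against 29.7, 28.0 and 29.7 in wt of set 1, with no overlap. The difference was 0.57 (SE 0.10, adjusted p = 3.17e-04), and 11.9% of all genes were called in that comparison. At 144 h Wapl was at 43.3 and 38.8 FPKM against 30.8, 34.5, 26.0 and 27.7 in wt, a difference of 0.47 (SE 0.099, adjusted p = 3.26e-04; 30.7% of genes called). At 120 h it was at 31.1 and 34.1 FPKM against 26.9, 28.5 and 31.3, which overlapped, and the difference of 0.18 was not called (7.85% of genes called). Within Del(CBS1-5) Wapl fell by 0.41 from 96 h to 120 h (SE 0.10, adjusted p = 2.64e-03; 20.2% of genes called). In the 2 mutant libraries of 96 h Wapl was above all wt libraries of that stage in either set, the highest of which was at 38.5 FPKM.

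The 96 h difference was 0.55 and 0.60 with 1 mutant library left out, with adjusted p = 0.0709 and 0.0621, and adjusted p was 0.0563 in a fit of the mutant and its controls alone. At 144 h it was 0.33 against the wt libraries outside the time course (adjusted p = 0.0105 within the set) and 0.61 against those of the time course (9.06e-06). Markers of pluripotency were high in the same libraries. The summed level of 6 such genes was 241 and 249 FPKM in Del(CBS1-5) at 96 h against 38.9 to 124 in wt of set 1, and 298 and 300 FPKM at 144 h against 69.0 to 103 in wt. Of the 6 genes 4 were called higher at 96 h, where 8.12% of all genes were called higher. At 144 h 4 were called higher and 1, Klf4, lower, with 19.9% and 10.8% of all genes called higher and lower. At 120 h, where Wapl overlapped wt and was not called, the sum was 156 and 174 FPKM against 30.1 to 108 in wt of set 1. Other marker sums of Del(CBS1-5) also lay outside those of wt at 144 h, among them somite at 346 and 348 FPKM against 172 to 243, spinal cord at 35.0 and 36.8 against 64.0 to 100, and presomitic mesoderm at 14.5 and 15.9 against 38.9 to 64.7. The part of these markers in the differences of Wapl, Smc3 and Stag2 was not tested.

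A pair of ring genes was also higher in Del(CBS1-5) at 144 h. Smc3 was at 62.6 and 59.6 FPKM against 53.5, 58.3, 42.2 and 41.7 in wt (difference 0.33, SE 0.090, adjusted p = 4.11e-03). Stag2 was at 37.2 and 32.9 FPKM against 31.4, 33.6, 27.4 and 27.6, with overlap (0.23, SE 0.076, adjusted p = 0.0209). Against the 2 wt libraries outside the time course these differences were 0.13 and 0.11, with adjusted p = 0.135 and 0.257. The call of Stag2 was also lost under either rescaling of the libraries, by upper quartile (adjusted p = 0.108) or by median of ratios (0.117). The effect of Del(CBS1-5) on Stag2 differed between 144 h and both earlier stages, and that on Smc3 between 144 h and 96 h (11.7% of all genes called for 96 h against 144 h and 7.66% for 120 h against 144 h). In the comparison with wt at 144 h 6 of 10 cohesin partners were higher, where 19.9% of all genes were called higher (30.7% in all), among them Esco2 by 0.78 and Sgo1, the protector of centromeric cohesin, by 0.38, and 3 of 3 tested germline genes were higher, Rec8 by 2.48.

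The wt libraries of 144 h were not alike. In 8 of 10 members, all but Rad21 and Stag1, both libraries outside the time course were above both of the time course, as they were in 29% of all genes tested. Nipbl was at 19.5 and 22.8 FPKM outside and 13.1 and 12.9 in the time course, and Smc1a at 70.7 and 73.6 against 54.8 and 51.5. Values at 144 h therefore depended on which wt served as control. The lower values of these 8 members at 144 h in the time course did not recur in the other wt libraries of that stage. At 168 h no wt libraries were made outside the time course, so the falls to that stage had no second wt series.

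In Del(CBS4) at 144 h the PDS5 genes were higher. Pds5a was at 65.6 and 66.5 FPKM against 55.9, 63.2, 43.8 and 46.5 in wt (0.35, SE 0.097, adjusted p = 0.0367), and Pds5b at 27.9 and 26.4 FPKM against 23.6, 26.1, 19.4 and 20.8 (0.28, SE 0.076, adjusted p = 0.0345). Neither overlapped wt, where the share of all genes without overlap was not counted, and 3.42% of all genes were called. Against the wt libraries outside the time course alone they were 0.15 (adjusted p = 0.399) and 0.13 (0.354), and both calls were lost without either time-course replicate. Marker sums in these Del(CBS4) libraries lay below those of wt for endoderm (67.4 and 83.0 FPKM against 104 to 124), endothelium (10.6 and 15.9 against 22.7 to 25.5) and cardiac genes (1.11 and 1.79 against 4.03 to 65.7), and their part in the result was not tested. At 120 h no member was called in Del(CBS4), where 12.4% of all genes were.

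In Ins(2xCBS-d4d8) at 96 h the 5 genes of the ring itself were called lower. Smc3 was at 43.1 and 42.6 FPKM against 60.9, 52.7 and 60.2 in wt of set 2 (wt replicate 4 and the time course), a fall of 0.43 (SE 0.095, adjusted p = 3.29e-03). Stag1 was at 27.6 and 26.7 FPKM against 38.2, 31.2 and 34.0, and fell by 0.34 (SE 0.093, adjusted p = 0.0169). Stag2 was at 28.2 and 28.3 FPKM against 37.6, 34.7 and 34.2, and fell by 0.33 (SE 0.080, adjusted p = 7.29e-03). None of the 3 overlapped wt of the set.

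Smc1a was at 63.2 and 61.9 FPKM against 81.5, 72.8 and 76.5 (fall of 0.30, SE 0.092, adjusted p = 0.0347), a call lost without wt replicate 4 (adjusted p = 0.0958) and under either rescaling (0.08 and 0.0608). Rad21 was at 96.3 and 97.6 FPKM against 111, 106 and 114 (fall of 0.18, SE 0.050, adjusted p = 0.0148), a call lost without time-course replicate 2 (0.0599) and under upper quartile scaling (0.0582). In this comparison 5 of 10 members were lower and none higher, and 5.52% of all genes were called lower (9.91% in all). Lower values were not confined to the ring genes. Ctcf (mean 51.1 FPKM against 53.6 to 62.3 in wt), Nipbl (16.5 against 18.1 to 21.8) and Pds5b (25.6 against 28.4 to 29.7) were also below all wt of the set, uncalled. The share of all genes that lay below all wt of the set was not counted, so these positions have no background. Pds5a and the releaser gene Wapl overlapped wt and were not called. Wapl differed between the mutant libraries, at 42.4 and 31.1 FPKM.

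The calls rest on controls of the same set. Against all 4 wt libraries of 96 h outside the time course, of which 3 are of set 1, the differences were -0.16 for Smc3, -0.13 for Stag1, -0.09 for Stag2 and -0.06 for Smc1a, and Rad21 turned to 0.06, all uncalled. Summed somite markers were at 248 and 471 FPKM in Ins(2xCBS-d4d8) and at 453 to 1120 in its controls. Markers of neuro-mesodermal progenitors summed to 667 and 752 FPKM, above the 251 to 646 of the controls. The part of both in the result was not tested. At 120 h no member was called (Smc3 -0.23, Smc1a -0.19; 4.35% of genes called), and the difference between the effects at 96 h and 120 h was called for none of the 10 (0.193% of all genes).

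**Figure D4:**
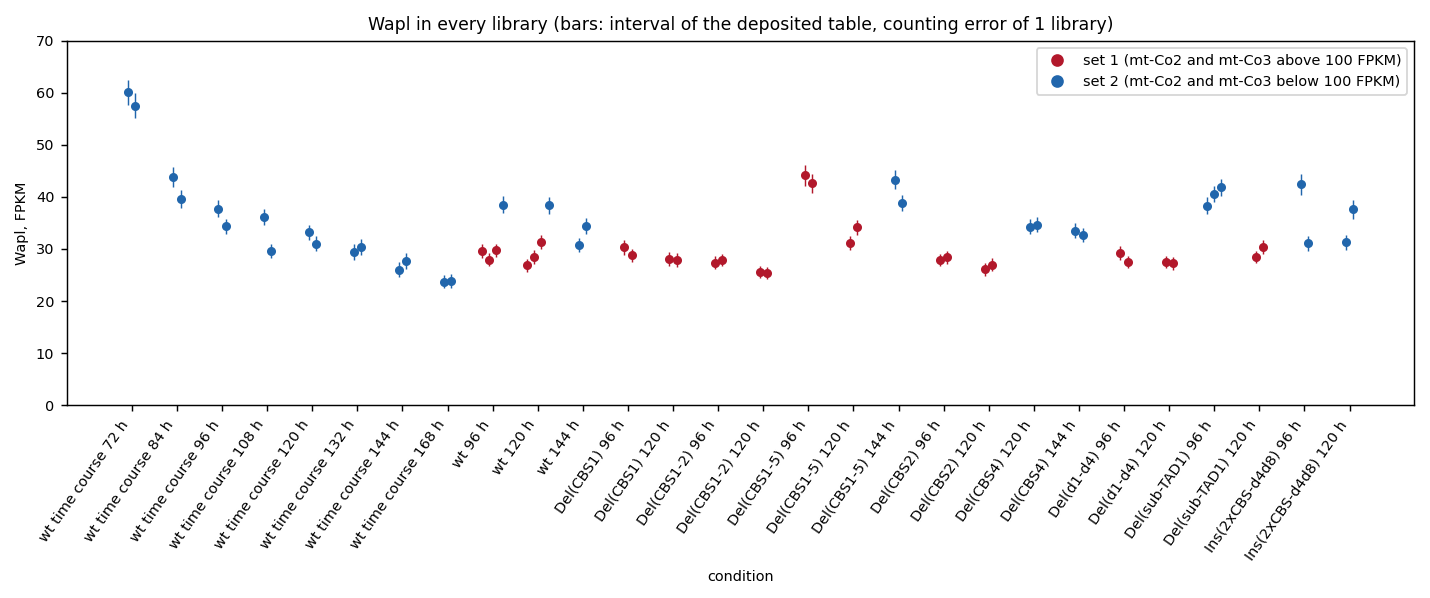
Wapl in FPKM in every library, by condition, with the interval of the deposited table as bars (counting error of a single library). Red points are libraries of set 1 and blue points of set 2. Del(CBS1-5) at 96 h lies at 44.1 and 42.6 FPKM, above all wt libraries of 96 h, and the time course falls from 60.1 to 23.7 FPKM.

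The third comparison followed the step from 96 h to 120 h in the libraries outside the time course. In wt of set 1, Ctcf alone passed, at 47.6, 46.8 and 47.3 FPKM at 96 h and 50.6, 52.5 and 51.4 at 120 h (0.12, SE 0.042, adjusted p = 0.0242; 29.5% of all genes called). Its call was lost without wt replicate 1, 2 or 3 and under either rescaling of the libraries. The direction of Ctcf was the same in 7 of 7 lines measured at both stages in 1 set, wt included, with differences from 0.08 to 0.19, called in 4: wt, Del(CBS2), Del(d1-d4) and Ins(2xCBS-d4d8). Rad21, Stag1, Nipbl and Pds5b were likewise higher at 120 h in 7 of 7 lines, with medians of 0.12, 0.13, 0.10 and 0.11, and were called in 2, 2, 0 and 0. In the time course the means of 96 h and 120 h were 57.9 and 58.0 FPKM for Ctcf, 110 and 109 for Rad21, 32.6 and 31.1 for Stag1, 18.8 and 18.0 for Nipbl and 29.6 and 29.7 for Pds5b, a step that was not tested as such there. Wapl was lower at 120 h in 7 of 7 lines, with a median of -0.08 and the 1 call of Del(CBS1-5). Of all genes 23.2% were called in Del(CBS1), 23% in Del(CBS1-2), 27.3% in Del(CBS2), 30.7% in Del(d1-d4), 20.2% in Del(CBS1-5) and 24.2% in Ins(2xCBS-d4d8). The median step of all genes was 0.032 in wt, 0.061 in Del(CBS2), 0.073 in Del(d1-d4) and 0.018 in Del(CBS1). It was 0.004 in Del(CBS1-2) and 0 in Del(CBS1-5) and Ins(2xCBS-d4d8). The share of all genes with 1 direction in 7 of 7 lines was not counted.

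The fourth comparison set the wt libraries of set 2 against those of set 1 at the same stage. Members were higher in set 2 in 16 of 20 tests and lower in none, 9 of 10 at 96 h and 7 of 10 at 120 h, where 21.4% and 19.5% of all genes were called higher (40.3% and 37.8% in all). Median differences were 0.34 and 0.23 over the members and 0.11 and 0.12 over all genes. Rad21 was at 90.0, 90.4 and 84.0 FPKM in set 1 and 111, 106 and 114 in set 2 at 96 h (0.32, SE 0.044, adjusted p = 1.41e-07), with no overlap. Pds5a was the member called at neither stage. With libraries scaled by the median of ratios, which brings the median of all genes to 0, only 5 of 20 were called, all higher in set 2. With the replicate number as a block 10 of 20 were, all higher; wt replicate 4 is the only replicate of set 2 outside the time course at these stages. A comparison of mutant and wt across the sets would carry these differences, which is why controls were taken from the same set.

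**Figure D5:**
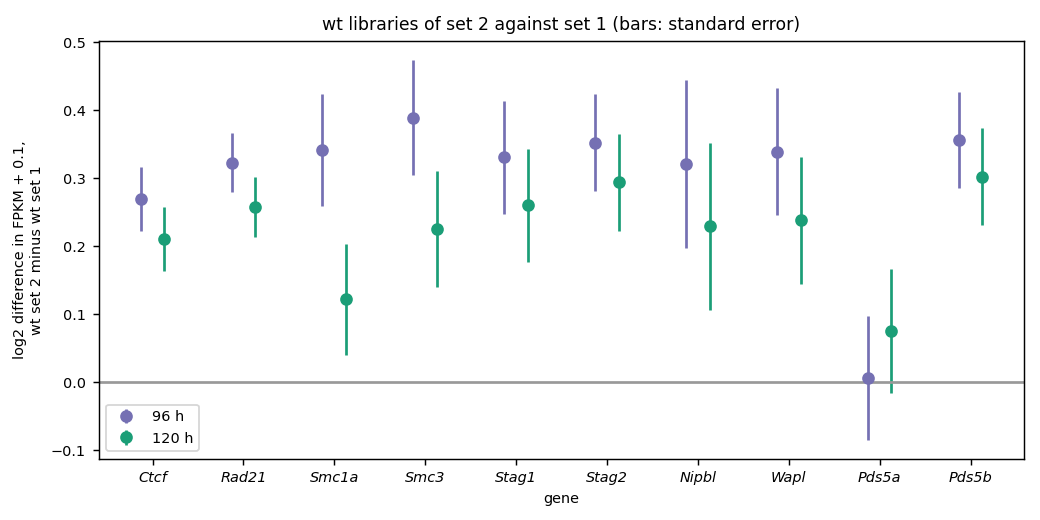
Log2 difference in FPKM + 0.1 between wt libraries of set 2 and set 1 at 96 h and 120 h for the 10 genes, with standard errors as bars and a line at 0. Rad21 at 96 h is at 0.32, and 16 of the 20 differences passed the threshold, all of them above 0.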

How the data were processed

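Messenger RNA of pooled stembryos was sequenced with a stranded poly-A kit. Per the submitters' processing notes the authors used cutadapt 1.16, STAR 2.7.7a and Cufflinks 2.2.1 on mm10, and deposited FPKM values per gene, with upper and lower bounds of the estimate per library. Library groups came from the labels. FPKM below 1 in the mean of every condition were filtered, leaving 17098 genes, and log2(FPKM + 0.1) was fitted in limma 3.58.1 (R 4.3.3) over all 61 libraries, as conditions for the time course and as genotype, stage and set for the mutants. P-values were adjusted over all genes (Benjamini-Hochberg, threshold 0.05). Members were named in every comparison, and related lists by counts with 2 to 4 examples past the threshold. Ratios were tested with 100000 permutations. The fit was tested on simulated data. Members and lists were chosen with earlier results of these data known. Same-numbered replicates deviated together no more than others (median correlation 0.011 in the time course and -0.007 in the mutants), so the numbers did not pair libraries there. Those of wt at 96 h and 120 h outside the time course did (0.561 to 0.889, and 0.176 to 0.425 within set 1), as a hint from the data and not from the labels, so pairs were also tested for the ratios. Alternatives changed the pseudocount, filter, scaling, controls and libraries. Promoter sequences came from RefSeq. Some genes that these rules would name are not reported here. The 14 genes whose estimate failed somewhere held no member.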

Additional observations from a re-analysis of the deposited data

Results flagged for a closer look

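Among the 4 wt libraries outside the time course at 96 h and at 120 h, replicate 4 was the highest by a wide gap in 9 of 20 tests of a member. The 20 tests share the same libraries and are not independent, so the count of 9 has no chance level to be set against. The share of all genes with such a gap was not counted. The gap to the next library, as a share of the range of the 4, was 0.912 for Ctcf, 0.832 for Stag1 and 0.831 for Wapl at 96 h. At 120 h it was 0.846 for Ctcf, 0.88 for Smc1a, 0.837 for Stag1, 0.913 for Stag2, 0.845 for Nipbl and 0.888 for Pds5b. The critical value is 0.829. Replicate 4 was the only one of the 4 in set 2, at both stages. Between the sets, by limma and with the time course included in set 2, 40.3% of all genes were called in wt at 96 h and 37.8% at 120 h.

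The effect of Del(CBS1-5) on 2 ring genes differed between stages by a contrast of the effects in limma. The effect on Smc3 was lower at 96 h than at 144 h (-0.42, SE 0.13, adjusted p = 0.0295; 11.7% of all genes called). The effect on Stag2 was lower at 96 h (-0.46, SE 0.11, adjusted p = 5.26e-03) and at 120 h (-0.39, SE 0.11, adjusted p = 0.0239; 7.66% of all genes called) than at 144 h. The stages were measured in different sets, set 1 at 96 h and 120 h and set 2 at 144 h, each against wt of its own set, so stage and set cannot be told apart. These 3 were the only ones called among 100 such contrasts of a member, and all 3 calls were lost when either mutant replicate was left out.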

How the results depend on the processing

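Across the 8 stages 7 to 10 members passed under every alternative. At 168 h against 72 h the count was 5 to 10, with 5 without time-course replicate 2 (the range without 1 replicate was 5 to 7), and no member changed direction. The mutant count of 11 moved to 7 with upper quartile scaling, to 26 (18 higher, 8 lower) with the time course as the only controls of set 2, an alternative chosen after seeing the data, and to 0 (22 at an unadjusted p under 0.05 in limma) when each mutant was fitted with its controls alone. Without 1 replicate it ran from 0 (without mutant replicate 1, 10 at an unadjusted p under 0.05) to 16, and the 1 call without mutant replicate 2 was Wapl in Del(CBS1-5) at 144 h. A lone library was assumed to vary like the others. Without wt replicates 3 and 4, also chosen after seeing the data, it was 14. With the replicate block it was 13, and the call of Stag1 in Ins(2xCBS-d4d8) was lost (-0.12, adjusted p = 0.393). The block gave 10 and 10 members in the time-course comparisons, 1 for wt 120 h against 96 h and 10 of 20 for set 2 against set 1. In the time course and the mutants the numbers name libraries and do not pair them, and the block changed no call of wt 120 h against 96 h, whose numbers pair libraries. Within set 1 or by pairs, alternatives chosen after seeing the data, no ratio between 96 h and 120 h changed direction, and neither design is large enough to pass. Rad21 in Ins(2xCBS-d4d8) turned to 0.06 (0.055) against all wt outside the time course. The wt 120 h count of 1 fell to 0 under upper quartile and median of ratios scaling and without wt replicates 3 and 4, and ran from 0 to 1 without 1 replicate. The set count of 16 fell to 5 under median of ratios scaling and ran from 12 to 16 without 1 replicate. The r of Pds5b to Pds5a rose to 0.582 (permutation p = 0.025) without the 2 libraries farthest from the median stage, and that of Nipbl to Wapl was 0.392 to 0.744 without 1 replicate. Of 512 values of single members under alternatives, 381 kept direction and side of the threshold, 123 lost the call, 7 gained it and 1 reversed; the causes were not tested. With 2 libraries in most conditions, small differences were not detectable at the standard errors given.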
